A study of Mus musculus with 12 samples.

Results

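Immediate early genes were followed as a set of 10 named genes, Fos, Fosb, Jun, Junb, Egr1, Ier2, Atf3, Nr4a1, Dusp1 and Zfp36, out of 16389 genes in the table. They were chosen by name, and all 10 were present and passed the filter on low values. RNA came from eGFP+ cells sorted from the thoracic spinal cord of male Aldh1l1-EGFP mice on a Swiss Webster background. The 12 libraries were 3 of HS 1 week and 2 of HS 2 weeks (lateral hemisection), 1 of FT 1 week and 3 of FT 2 weeks (full transection), and 3 of NI (non-injured). The methods describe 3 biological replicates per time point, so HS 2 weeks and FT 1 week have fewer libraries here than described. Lesions were made at thoracic level 9 in adults aged 12 weeks. All groups carried the same transgene, in which eGFP is driven by the Aldh1l1 promoter, and a segment of 1 cm was taken in each, centered on the lesion or at the equivalent place in NI. The methods list more mice than libraries, so that a library can hold RNA of several mice. All spinal cords were digested with trypsin and hyaluronidase at body temperature before sorting. Cells that were not dissociated were not analysed here, so a response to dissociation and one present in the tissue cannot be told apart.

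Immediate early genes are transcribed within minutes of a stimulus, without new protein synthesis, through factors already present in the cell such as SRF with its ETS partners and CREB. Several encode transcription factors. Fos and Jun proteins pair to form AP-1, while others, such as Dusp1 and Zfp36, shut the response down again. They respond to injury, cytokines and neuronal activity in spinal cord, and also to the handling of living tissue.

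The sorted cells did not match their label cleanly. Summed over marker lists, in normalized counts not scaled to gene length, 10 oligodendrocyte genes reached 52492 to 108080 per library and 12 astrocyte genes 2440 to 11810. The 14 microglia and macrophage genes summed to 997 to 14633 in injured libraries and 935 to 7820 in NI. Every one of these markers was above 0 in every library, but so was every gene present of all the other lists, so this says nothing about the sort. The libraries held 8270643 to 15562378 reads. In bulk RNA, fewer cells of a type and less RNA per cell cannot be told apart.

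Promoter sequences are shown for 5 members with different roles that carry a searched element in the 250 bases before their RefSeq start (GRCm38.p6), to show the elements through which CREB and SRF are known to act. Of the 10 members, 8 were matched in the promoter table. The core of the cAMP response element, TGACG on either strand, is in capitals for Fos (chr12:85473640-85473889, plus strand), Fosb (chr7:19310046-19310295, minus strand), Nr4a1 (chr15:101266596-101266845, plus strand) and Dusp1 (chr17:26508473-26508722, minus strand), and the CArG box, the SRF element, for Zfp36 (chr7:28379229-28379478, minus strand). Each is written 5′ to 3′ along the gene's own strand.
Fos: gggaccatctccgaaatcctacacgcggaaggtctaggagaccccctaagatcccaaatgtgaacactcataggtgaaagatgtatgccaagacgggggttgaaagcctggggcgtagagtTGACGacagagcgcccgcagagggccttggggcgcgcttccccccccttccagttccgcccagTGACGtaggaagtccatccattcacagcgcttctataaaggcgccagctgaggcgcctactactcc
Fosb: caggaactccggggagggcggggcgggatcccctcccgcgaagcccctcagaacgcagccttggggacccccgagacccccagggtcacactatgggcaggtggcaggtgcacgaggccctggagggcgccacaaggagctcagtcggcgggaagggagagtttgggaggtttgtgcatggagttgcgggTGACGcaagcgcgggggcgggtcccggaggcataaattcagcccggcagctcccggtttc
Nr4a1: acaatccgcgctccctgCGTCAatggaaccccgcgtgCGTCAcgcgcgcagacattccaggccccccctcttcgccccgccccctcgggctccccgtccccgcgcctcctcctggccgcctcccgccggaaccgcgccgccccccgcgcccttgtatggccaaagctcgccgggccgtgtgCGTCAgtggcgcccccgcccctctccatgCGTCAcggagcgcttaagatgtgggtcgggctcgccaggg
Dusp1: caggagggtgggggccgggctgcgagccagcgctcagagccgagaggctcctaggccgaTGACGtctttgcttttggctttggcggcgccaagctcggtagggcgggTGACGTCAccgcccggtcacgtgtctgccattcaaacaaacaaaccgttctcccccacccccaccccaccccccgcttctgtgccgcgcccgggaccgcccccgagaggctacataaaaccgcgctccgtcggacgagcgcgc
Zfp36: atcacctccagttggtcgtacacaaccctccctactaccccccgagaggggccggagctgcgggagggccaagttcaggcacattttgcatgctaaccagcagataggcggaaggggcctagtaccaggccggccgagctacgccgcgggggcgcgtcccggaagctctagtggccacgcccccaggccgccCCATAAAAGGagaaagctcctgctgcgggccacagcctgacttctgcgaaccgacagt

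TGACG was found in 6 of the 8 promoters (Fos, Fosb, Junb, Atf3, Nr4a1 and Dusp1), and in 20.8% of the 32851 promoters of the table, searched over 250 bases before and 50 after the start. Nr4a1 held 4 copies. The full palindrome TGACGTCA, which overlaps a core on each strand, was found in Dusp1 at position -143 from the start and in 1.79% of all promoters. The CArG box was found in Zfp36 at position -58 and in 1.63% of all promoters. Neither the AP-1 element, TGACTCA or TGAGTCA, nor the EGR element GCGTGGGCG on either strand was found in the 8 windows, and 5.2% and 0.612% of all promoters held them. A match is a description of the letters and no evidence of binding. A promoter without a match can hold an element outside this window or in other letters, which were not searched.

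In GRCm38, the AP-1 genes lie on chromosome 12 from 85473890 to 85477273 (Fos, plus strand), chromosome 7 from 19302696 to 19310051 (Fosb, minus strand), chromosome 4 from 95049034 to 95052222 (Jun, minus strand), chromosome 8 from 84974484 to 84978718 (Junb, minus strand) and chromosome 1 from 191170296 to 191218039 (Atf3, minus strand). Egr1 lies on chromosome 18 from 34859823 to 34864984 (plus strand), Nr4a1 on chromosome 15 from 101254269 to 101274795 (plus strand) and Ier2 on chromosome 8 from 84661331 to 84662852 (minus strand). Dusp1 lies on chromosome 17 from 26505590 to 26562128 and Zfp36 on chromosome 7 from 28376784 to 28380253, both on the minus strand. These are GENCODE M21 models, which can differ from the annotation over which the authors counted, and a RefSeq start need not be the outermost GENCODE start.

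Scaled to exon length, Fos was the most abundant member, with 322 normalized counts per kb on average over the 12 libraries. Zfp36 followed with 103, Egr1 with 44.4, Atf3 with 44.1, Jun with 40.0, Dusp1 with 31.6, Nr4a1 with 31.3, Fosb with 24.95, Ier2 with 13.3 and Junb with 9.82 per kb. The ranges of every pair of neighbours in this order overlapped between libraries. All values below are normalized counts per gene, not scaled to length. Jun, Dusp1 and Zfp36 overlap a gene on the opposite strand in the annotation (Junos, Ergic1 and Gm44710), and the sources used here do not state whether reads were counted by strand.

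**Figure D1:**
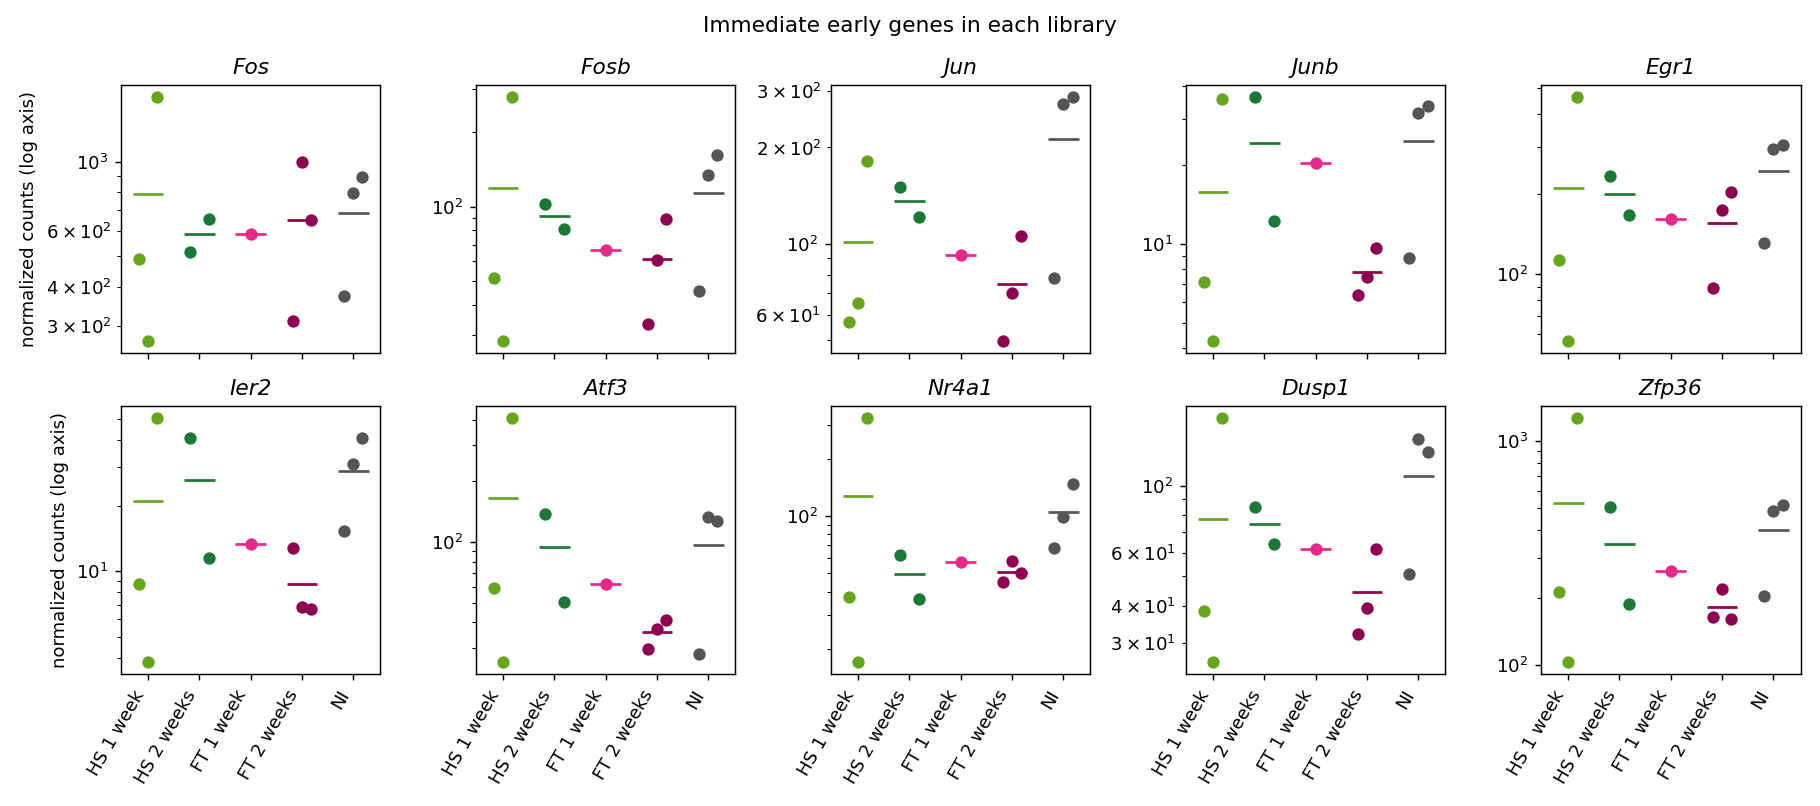
Normalized counts of each immediate early gene (log axis, a separate scale per gene) in the 12 libraries by group, with HS 1 week, HS 2 weeks, FT 1 week, FT 2 weeks and NI from left to right. Points are libraries and lines are group means; 1 HS 1 week library and 2 NI libraries lie far above the others of their groups for most genes.

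Among the AP-1 genes, Fos, the partner of Jun proteins, had 491, 268 and 1604 normalized counts in HS 1 week, 514 and 659 in HS 2 weeks, 589 in the FT 1 week library, 311, 999.9 and 651 in FT 2 weeks, and 374, 795 and 895 in NI. Every injured group overlapped NI. Only 0.6% of the sum of squares of log2 Fos lay between the 5 groups, against a median of 36.6% over all tested genes. Fosb, a close relative of Fos, had 51.0, 28.4 and 278 in HS 1 week, 102 and 80.9 in HS 2 weeks, 66.9 in the FT 1 week library, 33.2, 60.9 and 89.4 in FT 2 weeks, and 45.5, 134 and 162 in NI. Its groups overlapped in the same way.

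Jun, the central AP-1 subunit, had 57.0, 65.3 and 182 normalized counts in HS 1 week, 151 and 121 in HS 2 weeks, 92.1 in the FT 1 week library, 49.6, 70.0 and 105 in FT 2 weeks, and 78.3, 273 and 287 in NI. Its highest libraries were NI replicates 3 and 2, and every injured group overlapped NI. Jun had the largest share of variation between groups of the 10 genes, 42.2%, beside a median of 36.6% over all tested genes. Junb, which can restrain Jun at some promoters, had 7.15, 4.25 and 35.7 in HS 1 week, 36.2 and 12.2 in HS 2 weeks, 20.3 in the FT 1 week library, 6.35, 7.46 and 9.64 in FT 2 weeks, and 8.80, 31.5 and 33.5 in NI. The 3 FT 2 weeks libraries were close together, while the HS groups and NI each held both high and low libraries.

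Atf3, a stress-induced factor that binds with Jun proteins and marks injured neurons, had 59.2, 25.5 and 409 normalized counts in HS 1 week, 138 and 50.5 in HS 2 weeks, 61.7 in the FT 1 week library, 29.5, 36.9 and 41.3 in FT 2 weeks, and 28.1, 133 and 127 in NI. HS 1 week replicate 3 lay far above every NI library, while replicate 2 of the same group was the lowest of all 12. The 3 FT 2 weeks libraries sat at the lower end of the NI range.

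Of the other transcription factors, Egr1, a zinc finger protein, had 113, 56.1 and 461 normalized counts in HS 1 week, 234 and 166 in HS 2 weeks, 161 in the FT 1 week library, 88.7, 174 and 204 in FT 2 weeks, and 131, 295 and 304 in NI. Every injured group overlapped NI. Nr4a1, an orphan nuclear receptor, had 37.3, 17.0 and 328 in HS 1 week, 62.2 and 36.6 in HS 2 weeks, 56.9 in the FT 1 week library, 44.7, 58.1 and 49.9 in FT 2 weeks, and 68.0, 98.8 and 148 in NI. For Nr4a1, 8 of 9 injured libraries lay below every NI library and 1, HS 1 week replicate 3, above every one. Of all tested genes, 3.83% had at least 8 injured libraries below every NI library. The counting interval of HS 2 weeks replicate 1 overlapped that of NI replicate 1.

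Ier2, a short nuclear protein, had 8.73, 3.82 and 50.7 normalized counts in HS 1 week, 40.9 and 11.5 in HS 2 weeks, 13.3 in the FT 1 week library, 12.7, 6.87 and 6.67 in FT 2 weeks, and 15.3, 31.0 and 40.7 in NI. It had 7 injured libraries below every NI library and 2 above every one, and 8.01% of tested genes had at least 7 below. Its lowest value rested on 44 reads, with an exact 95% Poisson interval of 2.77 to 5.12 normalized counts that covers counting error only. The intervals of HS 2 weeks replicate 2, FT 1 week and FT 2 weeks replicate 1, counted as below every NI library, overlapped that of NI replicate 1, and that of HS 2 weeks replicate 1, counted as above, overlapped that of NI replicate 3. These placements lie within counting error.

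The feedback genes followed the same libraries. Dusp1, a phosphatase that inactivates MAP kinases, had 38.3, 26.0 and 168 normalized counts in HS 1 week, 85.0 and 64.3 in HS 2 weeks, 61.8 in the FT 1 week library, 32.3, 39.3 and 61.5 in FT 2 weeks, and 50.8, 142 and 129 in NI. Zfp36, which binds AU-rich elements and speeds the decay of cytokine mRNA, had 212, 103 and 1264 in HS 1 week, 507 and 188 in HS 2 weeks, 262 in the FT 1 week library, 164, 219 and 160.0 in FT 2 weeks, and 204, 487 and 516 in NI. Both genes overlapped NI in all 4 injured groups.

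For each of the 10 genes, most of the sum of squares of log2 levels lay within groups. The share of variation between groups was 0.6% (Fos) to 42.2% (Jun). The median of all tested genes was 36.6%. With 12 libraries in 5 groups, most of the sum of squares lies within groups even for a gene without any group effect. These shares therefore do not show that a gene varied more within groups than between them. HS 1 week replicate 3 held the highest level of 8 of the 10 genes, all but Jun and Junb, the library in which 1641 of the 16388 tested genes had their highest level. HS 1 week replicate 2 held the lowest level of 9, all but Jun, as did 2194 of the tested genes. NI replicate 1 was below the other NI libraries for all 10 genes, as for 7079 of the tested genes. NI replicates 2 and 3 and HS 1 week replicate 3 were all among the 4 highest libraries for each of the 10 genes, as for 2089 of the tested genes. The ratio of the highest to the lowest library ran from 5.79 for Jun to 19.3 for Nr4a1. Once group means were removed, the residual SD of the members was 0.80 to 1.34 on the log2 scale, larger than that of 91.5% to 98.2% of tested genes.

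**Figure D2:**
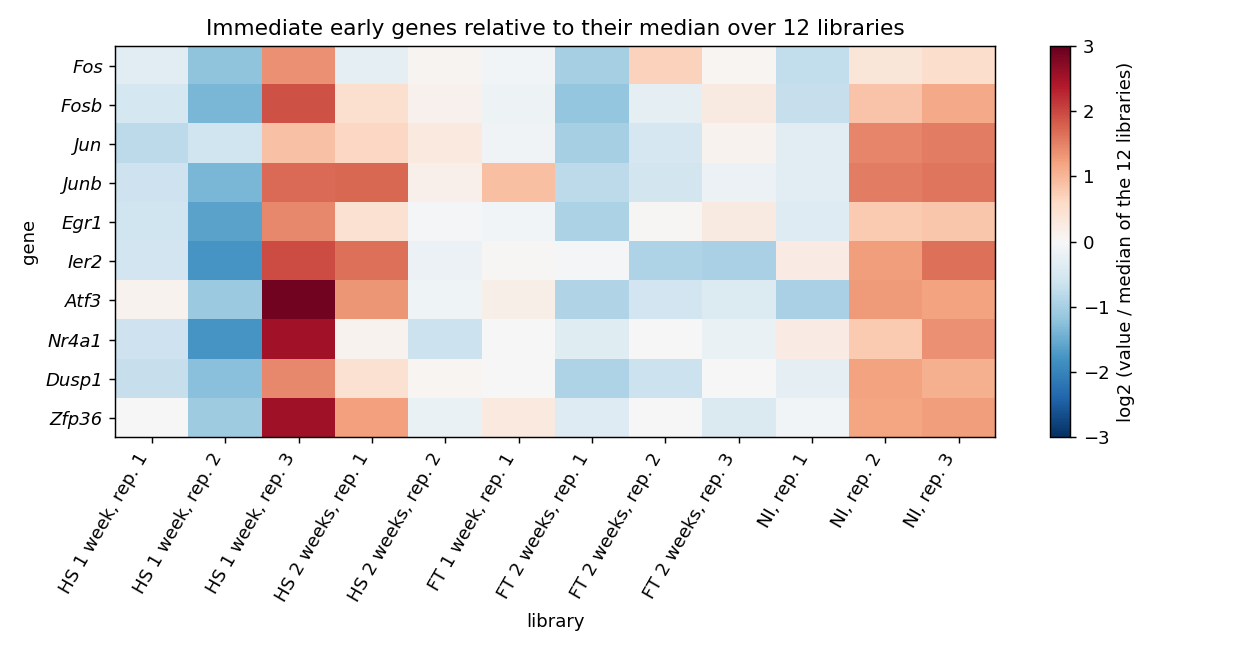
Log2 ratio of each gene's normalized count to its median over the 12 libraries (color, red above and blue below), with genes in rows and libraries in columns, injured groups left of NI. HS 1 week replicate 3 and NI replicates 2 and 3 are above the median for all 10 genes, and HS 1 week replicate 2 is below it for all 10.

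The 10 genes went up and down together over the libraries. Pairwise Pearson correlation of their log2 levels over 12 libraries had a median of 0.87 over 45 pairs and ran from 0.53 for Fos and Ier2 to 0.97 for Fosb and Egr1. It was 0.91 at the median with group means removed, and 0.84 without HS 1 week replicate 3. These values are descriptions, since the points share their cells, depth and scaling within each library. The genes did not keep a fixed ratio, however. The Fos to Zfp36 ratio was 1.02 to 4.57 in injured libraries and 1.63 to 1.83 in NI, and the Fos to Jun ratio was 3.41 to 14.3 in injured libraries and 2.91 to 4.78 in NI.

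Each injured group was compared with NI to ask whether lesion severity and time changed these genes. A gene was called where limma-trend gave a 2-fold or larger difference with a Benjamini-Hochberg adjusted p below 0.05. None of the 10 was called in any of the 4 comparisons with NI. Of the 16388 genes tested, 0.00610% were called at HS 1 week, 0.0122% at HS 2 weeks, 0.452% at FT 1 week and 0.0427% at FT 2 weeks. With the 4 injured groups averaged against NI none was called either, beside 0.293% of tested genes. The edgeR quasi-likelihood test on the recovered reads also called none of the 10, beside 0.00610%, 0.0122%, 0.427% and 0.0244% of tested genes at HS 1 week, HS 2 weeks, FT 1 week and FT 2 weeks. In the same order, the edgeR likelihood ratio test called none of the 10 beside 0.433%, 0.488%, 1.67% and 1.71%, and DESeq2 none beside 0.506%, 0.757%, 2.26% and 2.07%. At an unadjusted p below 0.05, limma-trend found 0 members at HS 1 week, HS 2 weeks and FT 1 week, where 7.66%, 7.49% and 11.2% of tested genes passed, and 1 at FT 2 weeks, Jun, where 10.8% passed. The FT 1 week group had a single library, whose spread was assumed to be that of the other groups.

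In limma-trend, the log2 fold changes (of the value plus 1) were mostly below 0, but this direction depended on the fit, at FT 2 weeks for Fos only. At HS 1 week they ran from -1.06 to 0.13 with 9 of 10 below 0 and a median of -0.69, at HS 2 weeks from -1.05 to 0.09 with 9 below 0 and a median of -0.24, and at FT 1 week from -0.99 to -0.06 with 10 below 0 and a median of -0.54. At FT 2 weeks they ran from -1.57 to -0.13, with 10 below 0 and a median of -1.08. Of all tested genes, 46.3% were above 0 at HS 1 week, 47.8% at HS 2 weeks, 48.5% at FT 1 week and 48.4% at FT 2 weeks, and their medians were -0.03 to -0.02. The comparisons share the same 3 NI libraries, of which 2 were high, so the 4 sets of values are not independent.

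At HS 1 week, all 3 count tests put 5 of the 10 genes above 0 (Fos, Fosb, Atf3, Nr4a1 and Zfp36), with a median of -0.07. The group means of Fos were 788 ± 716 normalized counts in HS 1 week and 688 ± 276 in NI, and those of Zfp36 were 527 ± 641 in HS 1 week and 402 ± 172 in NI (SD, n = 3 each). With the replicate number as a block, 8 of 10 were above 0 at HS 2 weeks and 5 of 10 at FT 1 week. The block cannot change the fold changes at HS 1 week and FT 2 weeks, since these groups hold the same replicate numbers as NI. At FT 2 weeks all 10 were below 0 in the count tests. Fos, however, was 0.33 there in limma-trend without FT 2 weeks replicate 1, and 0.11 without NI replicate 3. The medians also rested on single libraries. The HS 1 week median was -1.54 without HS 1 week replicate 3 and 0.08 without HS 1 week replicate 2, and the HS 2 weeks median was -0.68 without NI replicate 1 and 0.04 without HS 2 weeks replicate 2. The FT 1 week median was -1.07 without NI replicate 1 and -0.28 without NI replicate 3, and the FT 2 weeks median was -1.56 and -0.79 without these same NI libraries.

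At FT 2 weeks, Jun averaged 75.0 ± 28.2 normalized counts in FT 2 weeks and 213 ± 117 in NI (SD, n = 3 each), a log2 fold change of -1.35 ± 0.55 (SE, limma-trend adjusted p = 0.43). Ier2 averaged 8.75 ± 3.43 in FT 2 weeks and 29.0 ± 12.8 in NI (SD, n = 3 each), a log2 fold change of -1.57 ± 0.78 (SE, limma-trend adjusted p = 0.50). Ier2 and Nr4a1 were the members whose FT 2 weeks libraries all lay below every NI library, 2 of 10, beside 7.99% of tested genes. Both also lay below every NI library in the single FT 1 week library, as did 30.1% of tested genes, and Nr4a1 did so in both HS 2 weeks libraries, as did 11.6%. Fos differed least, with -0.13 ± 0.63 (SE). Jun at FT 2 weeks was -1.95 without NI replicate 1 (limma-trend adjusted p = 0.054) and -1.02 without NI replicate 3 (limma-trend adjusted p = 0.96).

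**Figure D3:**
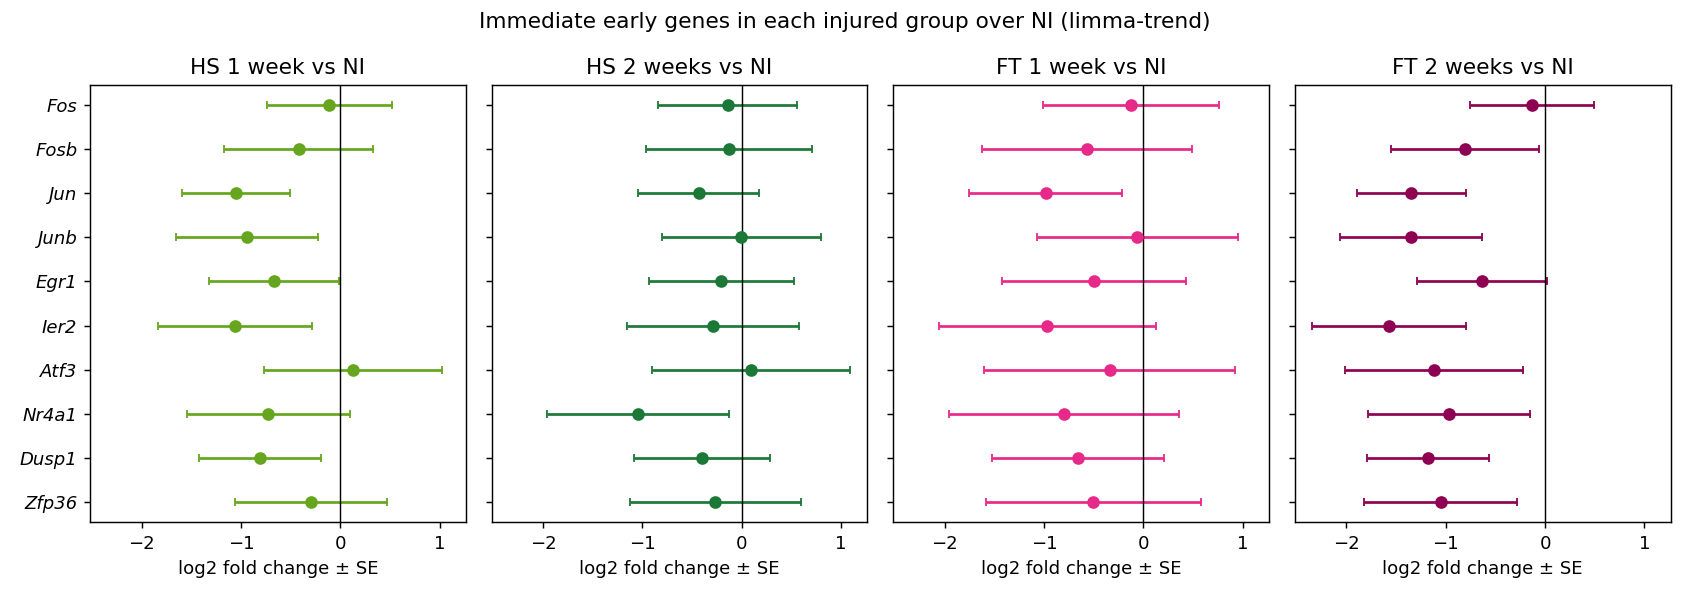
Log2 fold change of each immediate early gene in HS 1 week, HS 2 weeks, FT 1 week and FT 2 weeks over NI (limma-trend, points with SE bars, the vertical line marks no difference). Most points lie left of 0, and none was called after adjustment.

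Severities and times were compared directly as well, and none of the 10 genes was called. For FT over HS at 1 week, where 0.348% of tested genes were called, Junb had the limma-trend value farthest from 0, 0.87 ± 1.01 (log2, SE), while in the count tests Atf3 did, at -1.42 in both edgeR tests and -1.41 in DESeq2. For FT over HS at 2 weeks, where 0% were called, it was Junb again, with -1.35 ± 0.80. For 2 weeks over 1 week, Junb had 0.93 ± 0.80 after HS and -1.29 ± 1.01 after FT, beside 0% and 0.384% of tested genes called. In the count tests the value farthest from 0 for HS 2 weeks over 1 week was that of Nr4a1, at -1.37 in both edgeR tests. With the 4 FT libraries alone in the model, Junb at FT 2 weeks over FT 1 week was called with the same fold change and an SE of 0.41 (limma-trend adjusted p = 0.045), as were 1575 genes in all, 9.71% of those tested. That model has 1 library on one side.

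Levels of the members moved with the RNA of other cell types in the sort. The mean standardized level of the 10 genes correlated over 12 libraries with the microglia and macrophage sum (Pearson r = 0.77), the endothelial sum (0.70), the neutrophil sum (0.69) and the ependymal sum (0.65). It was inverse with the astrocyte sum (-0.84), the pericyte and fibroblast sum (-0.75), the oligodendrocyte sum (-0.71) and the neuron sum (-0.32). Within the 7 libraries with least microglial RNA, r was 0.74 with the endothelial, 0.66 with the pericyte and fibroblast, 0.55 with the neuron, 0.40 with the microglial and -0.12 with the neutrophil sum, and -0.79 with the ependymal, -0.63 with the astrocyte and -0.46 with the oligodendrocyte sum. Junb, Atf3 and Zfp36 were higher in each of the 5 libraries with most microglial RNA (HS 1 week replicate 3, HS 2 weeks replicate 1, FT 1 week and NI replicates 2 and 3) than in each of the other 7, as were 6.22% of all tested genes. The FT 1 week library was the lowest of these 5 for 9 of the 10 genes, all but Fos, and for 26.7% of tested genes. Its microglial sum was 13407, against 6073 and 7820 in NI replicates 2 and 3. The 6 detected neutrophil genes summed to 39.0 to 2344 in injured libraries and 656 to 9521 in NI, and the library with 2344 was HS 1 week replicate 3. The part of these cells in the levels of the members was not tested.

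**Figure D4:**
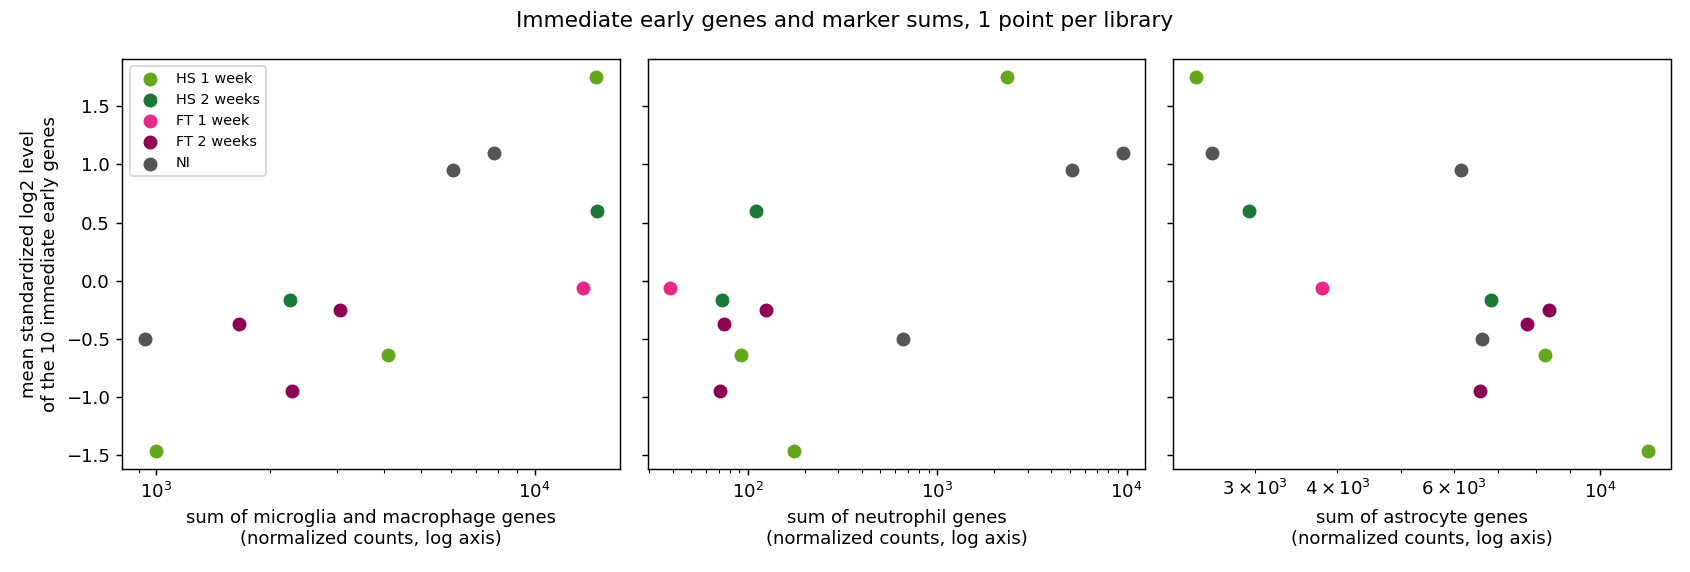
Mean standardized log2 level of the 10 immediate early genes (vertical axis, in SD units) against the summed normalized counts of microglia and macrophage, neutrophil and astrocyte genes (horizontal log axes), 1 point per library colored by group. High members go with high microglial and low astrocyte sums, and the FT 1 week library, at a microglial sum of 13407, lies below the other microglia-rich libraries.

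With the log2 microglial sum as a covariate, 3 members were called lower in injured libraries than in NI. Jun had a log2 fold change of -1.17 ± 0.28 (SE, limma-trend adjusted p = 0.022), Ier2 -1.32 ± 0.30 (0.019) and Dusp1 -1.02 ± 0.27 (0.033). In this model 4.79% of all tested genes were called. At FT 1 week, Ier2 had -2.23 ± 0.54 (limma-trend adjusted p = 0.035) and Atf3 -1.88 ± 0.48 (0.041), beside 5.10% of tested genes. The covariate is itself measured on these libraries, and the FT 1 week value again rests on 1 library. That library has the weight of a whole group in the average over injured groups. Within the 5 libraries with most microglial RNA, no member was called for injured over NI. Few genes of any kind were called in that fit, a number like the 48 of the main model (0.293% of tested genes). The lack of called members is therefore no result about these genes. Atf3 (0.22) and Zfp36 (0.14) were above 0 within these 5 libraries, and the other 8 below. Within the 7 with least, where NI has 1 library, Fos (0.45), Fosb (0.21) and Atf3 (0.46) were above 0, and the other 7 below.

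Other early response genes were counted from lists. No gene of any list was called in any of the comparisons, beside 0% to 0.452% of all tested genes. In injured libraries over NI, 8754 of the 16388 tested genes were below 0, with a median of -0.03. AP-1 partners (8 of 9 in the table) had a median log2 fold change of 0.07 in injured libraries over NI, with Jund at 27.0 to 52.0 normalized counts in injured libraries and 29.0 to 51.4 in NI. Other early transcription factors (11 of 15) had a median of -0.25 and 8 below 0, and Klf6 ran from 113 to 682 in injured libraries and from 196 to 387 in NI. Early feedback and effector genes (29 of 31) had a median of -0.32 and 20 below 0, and Btg2, an antiproliferative gene, ran from 106 to 1931 in injured libraries and from 149 to 723 in NI. Upstream kinases and factors (16 of 16) had a median of -0.06, and Mapk3, a MAP kinase, ran from 191 to 314 in injured libraries and from 192 to 289.8 in NI. Heat shock genes (12 of 12), which also respond to handling, had a median of -0.04, and their sum was 6914 to 10770 in injured libraries and 8280 to 9777 in NI. The most abundant of them, Hspa8 (3010 to 5653 over all libraries) and Hsp90ab1 (2043 to 2855), weigh most in this sum. The sum and its correlation therefore say little about the less abundant heat shock genes. The mean level of the members correlated with the summed other early transcription factors at r = 0.96, with feedback genes at 0.89 and with heat shock genes at 0.42, over 12 libraries.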

How the data were processed

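Polyadenylated RNA of sorted eGFP+ cells was sequenced. Per the labels and methods, TopHat2 2.0.9 served for alignment to mm10 (GRCm38), HTSeq 0.5.4p3 for counting and edgeR 3.3.6 for normalization. The deposited table holds a signal, in which the authors scaled each library's gene counts by a single factor, and whole reads were recovered with a largest departure of 1.3e-09. The log2 values, after adding 1, entered limma-trend (limma 3.58.1, R 4.3.3) in 1 model of 5 groups, for genes with a group mean of at least 0.5. Genes were called at a Benjamini-Hochberg adjusted p under 0.05 and 2-fold. Alternatives were other pseudocounts, filters and scaling, edgeR 4.0.16 and DESeq2 1.42.0 on the recovered reads, only the compared groups, a replicate block, a microglial covariate and each library left out. Fits within libraries of like microglial RNA were added after the data were seen. Nothing shows that the libraries of a group came from separate animals beyond the label of biological replicates, so p-values measure the spread between these libraries. Exon lengths and positions are those of GENCODE M21, and promoters those of RefSeq (GRCm38.p6). The members and lists were chosen with earlier results of these data known. The genes named are the 10 members, the most abundant uncalled genes of each list, and the genes whose log2 levels over 12 libraries correlate best with the members. Some genes under this rule are not given here. Columns of the table were all used.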

Additional observations from a re-analysis of the deposited data

How the results depend on the processing

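No member was called in any comparison when a library was left out, with another pseudocount, filter or scaling, by the count tests, or with the replicate block. Of the fold changes of members recomputed against NI, 1089 kept their direction and side of the threshold, 76 changed sign and 5 became called, all with the microglial covariate. With pseudocount 0.25, genes called were 4 (HS 2 weeks vs NI). With pseudocount 4, genes called were 2 (HS 1 week vs NI), 4 (FT 2 weeks vs NI). With median-ratio scaling, the log2 fold changes of other sign were Junb 0.008 (HS 2 weeks vs NI). With the edgeR quasi-likelihood test, genes called were 4 (FT 2 weeks vs NI), 37 (FT vs HS at 1 week), 40 (FT 2 weeks vs 1 week), and the log2 fold changes of other sign were Fos 0.20, Fosb 0.070, Nr4a1 0.28, Zfp36 0.39 (HS 1 week vs NI) and Atf3 -0.031 (HS 2 weeks vs NI). With the edgeR likelihood ratio test, genes called were 71 (HS 1 week vs NI), 80 (HS 2 weeks vs NI), 274 (FT 1 week vs NI), 281 (FT 2 weeks vs NI), 604 (injured vs NI), 106 (FT vs HS at 1 week), 1 (HS 2 weeks vs 1 week), 184 (FT 2 weeks vs 1 week), and the log2 fold changes of other sign were Fos 0.20, Fosb 0.068, Nr4a1 0.28, Zfp36 0.39 (HS 1 week vs NI) and Atf3 -0.031 (HS 2 weeks vs NI). With DESeq2, genes called were 83 (HS 1 week vs NI), 124 (HS 2 weeks vs NI), 370 (FT 1 week vs NI), 340 (FT 2 weeks vs NI), 542 (injured vs NI), 124 (FT vs HS at 1 week), 220 (FT 2 weeks vs 1 week), and the log2 fold changes of other sign were Fos 0.20, Fosb 0.075, Nr4a1 0.28, Zfp36 0.39 (HS 1 week vs NI) and Atf3 -0.011 (HS 2 weeks vs NI). With only the compared groups, genes called were 0 (HS 1 week vs NI), 0 (HS 2 weeks vs NI), 0 (FT 1 week vs NI), 14 (FT 2 weeks vs NI), 0 (FT vs HS at 1 week), 1575 (FT 2 weeks vs 1 week), and members called were 1 (FT 2 weeks vs 1 week). With the microglial covariate, genes called were 140 (HS 1 week vs NI), 215 (HS 2 weeks vs NI), 836 (FT 1 week vs NI), 227 (FT 2 weeks vs NI), 785 (injured vs NI), 113 (FT vs HS at 1 week), and members called were 2 (FT 1 week vs NI), 3 (injured vs NI), and the median of the members was -1.73 (FT 1 week vs NI), and the log2 fold changes of other sign were Atf3 -0.47 (HS 2 weeks vs NI) and Fos 0.11 (FT 2 weeks vs NI). With injured against NI as 2 groups in the 5 libraries with most microglial RNA, the log2 fold changes of other sign were Atf3 0.22, Zfp36 0.14 (injured vs NI). With the same in the 7 with least, genes called were 17 (injured vs NI), and the log2 fold changes of other sign were Fos 0.45, Fosb 0.21, Atf3 0.46 (injured vs NI).

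Deviations from group means correlated over 0.1 in 5 of 15 pairs of libraries with the same replicate number, and in 13 of 30 with different numbers. The correlations ran from -0.478 to 0.718 and from -0.725 to 0.667. Deviations within a group of 2 or 3 libraries are tied to each other, so this count cannot show whether the libraries were paired. With the replicate block, 0 members were called, genes called were 7 (HS 1 week vs NI), 6 (HS 2 weeks vs NI), 26 (FT 2 weeks vs NI), and the log2 fold changes of other sign were Fos 0.20, Fosb 0.41, Junb 0.43, Egr1 0.22, Ier2 0.085, Dusp1 0.014, Zfp36 0.13 (HS 2 weeks vs NI) and Fos 0.50, Fosb 0.12, Junb 0.34, Egr1 0.010, Atf3 0.17 (FT 1 week vs NI) and Fos 0.11 (injured vs NI).

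Leaving out each library in turn, genes called ran from 0 to 15 (HS 1 week vs NI), 0 to 36 (HS 2 weeks vs NI), 49 to 149 (FT 1 week vs NI), 0 to 458 (FT 2 weeks vs NI), 1 to 371 (injured vs NI), 36 to 93 (FT 2 weeks vs 1 week). Log2 fold changes that changed sign ran from Fos -0.82 to 0.46, Fosb -1.36 to 0.26, Egr1 -1.50 to 0.005, Atf3 -0.99 to 0.99, Nr4a1 -1.94 to 0.16, Zfp36 -1.32 to 0.48 (HS 1 week vs NI), Fos -0.53 to 0.094, Fosb -0.69 to 0.21, Junb -0.75 to 0.74, Egr1 -0.60 to 0.038, Ier2 -1.16 to 0.59, Atf3 -0.63 to 0.81, Zfp36 -0.98 to 0.45 (HS 2 weeks vs NI), Fos -0.52 to 0.11, Junb -0.66 to 0.25, Atf3 -1.06 to 0.037 (FT 1 week vs NI), Fos -0.52 to 0.33 (FT 2 weeks vs NI), Fos -0.52 to 0.11, Atf3 -1.03 to 0.068 (injured vs NI). The counts over all genes moved most often when NI replicate 1, NI replicate 2, NI replicate 3 or HS 1 week replicate 3 was left out. Genes called for injured over NI were 371, 1, 2 and 158 without each of them, against 48. The lowest read count of a member was 44, and some differences of Ier2 between single libraries lie within counting error.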

Other observations

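Among the genes whose profile was most like the mean of the 10 immediate early genes over the 12 libraries, of 11255 genes with a mean of at least 5 normalized counts and with the members left out, were Btg2 (Pearson r = 0.96), Nfkbiz, an inhibitor of NF-kB that is itself induced early (0.96), Rgs2, a regulator of G protein signaling (0.96), Vwf, the von Willebrand factor of endothelium (0.96), Grap (0.96), Rcsd1 (0.96), Numb (0.95), Atp10d (0.95) and Txnip (0.94). In all, 96 genes had r of at least 0.9 and 601 of at least 0.8. Rgs2 had 292 normalized counts in HS 1 week replicate 3, its highest library, and 28.5 in its lowest. These correlations are descriptions over libraries that share depth and cell makeup, and nothing follows from them about shared control.

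With the members again left out, the closest genes to single members were Sertad1 for Fos (0.93), Klf4 for Fosb (0.97), Cmtm4 for Jun (0.97), Nabp1 for Junb (0.99), Nfkbiz for Egr1 (0.94) and for Dusp1 (0.96), Arap3 for Ier2 (0.96), Fgfr1op for Atf3 (0.97), Klf6 for Nr4a1 (0.94) and Nfkbia, the NF-kB inhibitor, for Zfp36 (0.98).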
